A study of Mus musculus with 18 samples.

Results

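The 10 core circadian clock genes *Arntl*, *Npas2*, *Clock*, *Per1*, *Per2*, *Per3*, *Cry1*, *Nr1d1*, *Nr1d2* and *Dbp* were read by symbol from both count tables, which list 55453 gene symbols each. All 10 members passed the filter on low counts in both experiments. The samples were aortae of homozygous edited mice and their wild-type controls, in which the CArG box of the *Tspan2* promoter, a binding site of serum response factor, had been changed in the germline. The HDR experiment held 5 *Tspan2*+/+ and 5 *Tspan2* sg/sg libraries from mice labelled C57BL/6 and 12 weeks old, edited with wild-type Cas9, an sgRNA and a single-strand repair template. The PE2 experiment held 4 *Tspan2*+/+ and 4 *Tspan2* peg/peg libraries from mice labelled FVB/N/B6(Cg)-Tyrc-2J/J and 8 weeks old, edited with prime editor 2, a Cas9 nickase fused to reverse transcriptase, and a pegRNA. Founders of both came, per the methods, from the same cross of FVB/NJ females and B6(Cg)-Tyr2J/J males and were then bred to C57BL/6J mice, whatever strain the labels give. Each edit is present in every cell of the animal and no Cre or transgene is involved. Per the methods, each library came from 1 aorta freed of the tissue around it. The labels give 3 females and 2 males for each HDR genotype, 3 females and 1 male (WT_4) for the PE2 wild type and 4 females for peg/peg. Libraries are named here as in the column headers (WT_2 to WT_6 and Mut_2 to Mut_6 for HDR, WT_1 to WT_4 and Homo_1 to Homo_4 for PE2). The HDR headers do not say which animal of the labels a column is, so no HDR library has a labelled sex. The labels do not give the hour at which an aorta was taken.

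The clock is a transcriptional feedback loop that runs in almost every cell, vascular smooth muscle included. ARNTL (BMAL1) pairs with CLOCK or its relative NPAS2 and switches on the *Per*, *Cry*, *Nr1d* and *Dbp* genes through E-boxes. PER and CRY proteins then hold that pair back, while the NR1D nuclear receptors (REV-ERBs) repress *Arntl*, *Npas2* and *Clock* through ROR elements, so that in peripheral tissues *Arntl* and *Npas2* peak at the opposite time of day from *Dbp*, *Per3* and the *Nr1d* genes. DBP is a PAR bZIP activator that acts through D-boxes. *Per1*, and to a lesser degree *Per2*, is also induced within minutes to hours by glucocorticoids and by cAMP or calcium signals.

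The promoter windows show where these elements lie in the members. RefSeq promoters of GRCm38.p6, each running from 250 bases before to 50 bases after a transcription start, were found for 9 of the 10 members (13 windows), with none for *Per2*. The following stretches are printed because they hold the motifs by which the members are known to be controlled. Each stretch has 30 bases, is written 5′ to 3′ on the strand of the gene, and has the motif in capitals.
Cry1 E-box: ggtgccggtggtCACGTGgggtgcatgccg
Per1 E-box: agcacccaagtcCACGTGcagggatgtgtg
Cry1 E′-box: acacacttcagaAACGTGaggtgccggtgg
Nr1d1 E′-box: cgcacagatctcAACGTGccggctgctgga
Per3 D-box, distal: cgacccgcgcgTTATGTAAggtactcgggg
Per3 D-box, proximal: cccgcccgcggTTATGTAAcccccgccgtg
Arntl ROR element core: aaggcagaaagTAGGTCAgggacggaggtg

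These stretches lie at chr10:85185097-85185126 (*Cry1* E-box, reverse strand), chr11:69098771-69098800 (*Per1*, forward strand), chr10:85185116-85185145 (*Cry1* E′-box, reverse strand), chr11:98775388-98775417 (*Nr1d1*, reverse strand), chr4:151044852-151044881 and chr4:151044805-151044834 (*Per3*, reverse strand) and chr7:113207530-113207559 (*Arntl*, forward strand). The *Arntl* stretch begins among the early transcribed bases of its window, with the motif 30 bases after the start, and the others are upstream of the start of their own window. For *Per1* that start is an internal one, so the stretch lies inside the span of the gene given with its position. On either strand, the E-box (CACGTG) was found in 2 of the 13 member windows (2 of 9 members) and in 7.15% of all 32851 windows. The E′-box (CACGTT, printed above as its reverse complement) was found in 2 of 13 member windows (2 of 9 members) and 4.68% of windows. The D-box (TTATGTAA) was found in 1 of 13 member windows and 0.938% of windows, and the ROR element core (TAGGTCA) in 1 of 13 and 2.61%. The CArG box, the element edited in these mice, was found in 0 of 13 member windows, against 1.63% of windows. No motif contains another, though the E-box and the E′-box differ only in their last base. A match or its absence in so short a window describes these letters alone.

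The members lie on 7 autosomes. *Arntl* (ENSMUSG00000055116, chr7:113207465-113314126) and *Dbp* (ENSMUSG00000059824, chr7:45705088-45710203) share chromosome 7, *Npas2* (ENSMUSG00000026077, chr1:39193731-39363236) and *Per2* (ENSMUSG00000055866, chr1:91415982-91459324) share chromosome 1, and *Per1* (ENSMUSG00000020893, chr11:69095217-69109960) and *Nr1d1* (ENSMUSG00000020889, chr11:98767932-98775333) share chromosome 11. *Clock* (ENSMUSG00000029238, chr5:76209868-76304792), *Per3* (ENSMUSG00000028957, chr4:151003652-151044665), *Cry1* (ENSMUSG00000020038, chr10:85131700-85185064) and *Nr1d2* (ENSMUSG00000021775, chr14:18204054-18239127) each lie alone, all on GRCm38 (Gencode M21). None of them is on chromosome 3, where the edited *Tspan2* lies.

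Several facts of the whole series bear on the values below. Between 17290992 and 24880385 counts per library were summed in the HDR and between 38820265 and 44895615 in the PE2 table, so the lowest member value, *Arntl* in Mut_3, still rested on 20 counts. *Tspan2*, the check of the genotype, was lower in every edited library than in every wild-type library of its experiment (log2 fold change -3.07, standard error 0.27 in HDR and -3.45, standard error 0.29 in PE2; edgeR adjusted p = 0.00226 and 0.0292). In PE2 this call was lost with any 1 library left out other than Homo_3, while the log2 fold change stayed between -3.60 and -3.28. Smooth muscle markers were high everywhere, with *Myh11* at 4726 CPM or more in all 18 libraries. The brown fat gene *Ucp1* was at 87.4 CPM or more in every library but Homo_3 (1.36 CPM), although the methods describe aortae cleaned of tissue around them. Homo_3 stood apart in the PE2 experiment. Its 9 skeletal muscle markers summed to 1204 CPM and its 5 cardiac markers to 1030 CPM, against 9.32 to 24.6 and 13.9 to 116 CPM in the other 7 PE2 libraries, and its 5 brown fat markers summed to 8.52 CPM against 464 to 2312 CPM. Results from the PE2 experiment are therefore given with and without it where they move.

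The 10 HDR libraries fell into separate sets in their clock genes, and the sets held both genotypes. *Arntl*, the activator, measured 1.76 CPM in WT_2, 2.32 in WT_3, 1.37 in WT_4, 61.8 in WT_5 and 63.0 in WT_6. The sg/sg libraries held 1.75 CPM in Mut_2, 0.965 in Mut_3, 1.87 in Mut_4, 45.5 in Mut_5 and 58.9 in Mut_6. CPM is the count of a gene scaled to the library size with TMM factors. WT_5, WT_6, Mut_5 and Mut_6 were thus high and the other 6 libraries low, with no value between 2.32 and 45.5 CPM and a 65.3-fold span from lowest to highest. *Dbp*, the output activator, ran the other way, with 296 CPM in WT_2, 260 in WT_3, 233 in WT_4, 9.46 in WT_5 and 6.72 in WT_6, and with 309 CPM in Mut_2, 283 in Mut_3, 249 in Mut_4, 21.6 in Mut_5 and 7.98 in Mut_6. The log2 ratio of *Dbp* to *Arntl* was accordingly 6.81 to 8.20 in 6 libraries and -3.23 to -1.08 in the same 4 as before.

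The other positive arm genes followed *Arntl*. *Npas2*, whose protein can take the place of CLOCK, was at 3.05 to 4.96 CPM in the 6 libraries with low *Arntl* and at 38.5 to 48.0 CPM in the 4 with high *Arntl*. *Clock* itself was at 83.6 to 116 CPM against 218 to 283 CPM. The negative arm and the output genes went with *Dbp*. *Per3* was at 192 to 283 CPM in the 6 libraries and at 17.2 to 32.6 CPM in the 4. *Per2* was at 153 to 231 against 23.5 to 42.5 CPM, and *Per1* at 99.7 to 192 against 31.2 to 58.4 CPM. *Nr1d1*, which encodes REV-ERBα, was at 129 to 275 against 26.3 to 103 CPM, and *Nr1d2*, which encodes REV-ERBβ, at 253 to 358 against 46.5 to 108 CPM. Mut_5 was the highest of its set for *Dbp*, *Per3*, *Nr1d1* and *Nr1d2* and the lowest for *Arntl*. *Cry1*, a repressor whose peak is known to come late in the cycle, was the exception, at 11.9 to 18.3 against 6.54 to 13.9 CPM, with the sets overlapping.

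**Figure D1:**
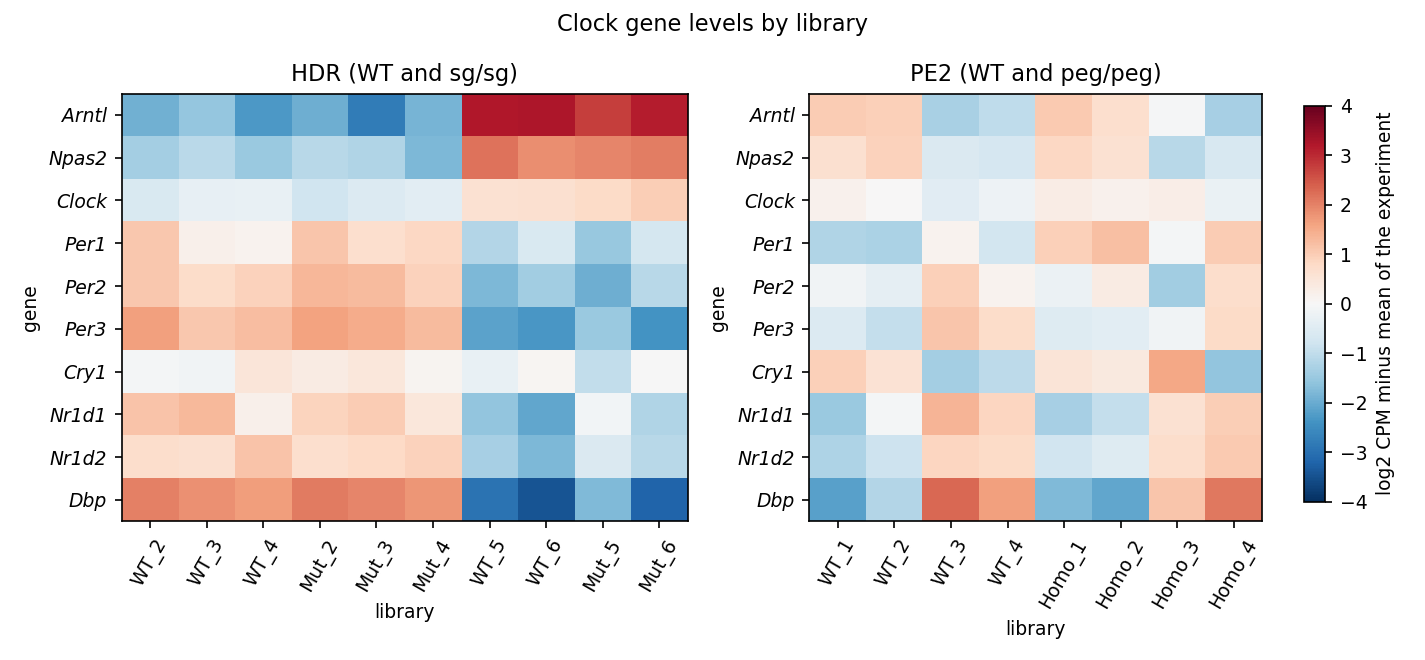
Level of each clock gene in each library, as log2 CPM minus the mean of that gene over its experiment (color, red above and blue below), with genes in rows and libraries in columns. HDR libraries WT_5, WT_6, Mut_5 and Mut_6 have high *Arntl* (45.5 to 63.0 CPM) and low *Dbp* (6.72 to 21.6 CPM), and wild-type and edited libraries occur on both sides in each experiment.

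The same libraries differed in sex-linked transcripts. *Xist*, the transcript of the inactive X chromosome, was at 1120 to 1578 CPM in the 6 libraries with low *Arntl* and at 0.761 to 1.82 CPM in the 4 with high *Arntl*. The Y-linked genes *Ddx3y*, *Eif2s3y*, *Kdm5d* and *Uty* together held 0 or 1 counts in the former and 7255 to 8024 counts in the latter. The 4 are also the last in the numbers that begin the column headers, 9 to 12, and the other 6 carry 3 to 8. Of the 6 libraries 3 and of the 4 libraries 2 are wild type, and the edited libraries divide likewise, which is the number of females and males that the labels give. Sex, the order of the columns and any difference in collection time thus cannot be told apart in these 10 libraries. Between the 6 and the 4 libraries, 9 of the 10 members did not overlap, and of all 16423 genes tested 19.7% did not. This division was made by *Xist* level, after the values had been seen, and no test was made between its sides. In the PE2 experiment the only male library, WT_4, lay beside a female library, WT_3, in its *Arntl* (13.5 and 10.99 CPM) and *Dbp* level (124 and 199 CPM).

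The other clock regulators divided the HDR libraries in the same way. Of 11 regulators outside the members, 10 were tested and 8 of these did not overlap between the 6 and the 4 libraries, against 19.7% of all genes tested. *Tef* and *Hlf*, the PAR bZIP relatives of *Dbp*, were at 370 to 483 and 105 to 142 CPM in the 6 libraries and at 61.7 to 89.5 and 9.86 to 15.5 CPM in the 4. *Ciart*, a repressor of the ARNTL complex, was at 16.5 to 29.7 against 0.160 to 0.550 CPM. *Nfil3*, which represses through the D-box that DBP activates, ran the other way, at 2.67 to 4.58 against 19.5 to 75.1 CPM. *Rora*, an activator at the ROR element, overlapped between them. Of the 9 genes for turnover and kinases of clock proteins 2 did not overlap, and of 4 output genes 1 did not. Both counts are near the 19.7% of all genes, so these lists did not stand out. The summed markers of other cell types overlapped between the 6 and the 4 libraries for smooth muscle (15982 to 28050 against 19491 to 35789 CPM), fibroblast (3248 to 4707 against 4247 to 5613 CPM), brown fat (290 to 1375 against 272 to 1358 CPM), adipocyte (588 to 1460 against 388 to 3003 CPM) and Schwann cell (16.01 to 35.5 against 14.4 to 85.1 CPM). They also overlapped for skeletal muscle (7.37 to 160 against 7.39 to 85.3 CPM), cardiac muscle (7.23 to 123 against 5.77 to 8.30 CPM) and lymphoid markers (1.98 to 10.6 against 3.78 to 15.3 CPM). Endothelial markers did not, at 1530.02 to 2429 against 918 to 1527.5 CPM, and their part in the result was not tested.

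In the PE2 experiment *Arntl* and *Dbp* also differed more among libraries of a genotype than between genotypes. *Arntl* was at 55.5 (WT_1), 52.5 (WT_2), 10.99 (WT_3) and 13.5 CPM (WT_4) in the wild type, and at 55.9 (Homo_1), 43.5 (Homo_2), 26.3 (Homo_3) and 10.9 CPM (Homo_4) in peg/peg. *Dbp* was at 8.92 (WT_1), 17.98 (WT_2), 199 (WT_3) and 124 CPM (WT_4), and at 11.9 (Homo_1), 9.46 (Homo_2), 86.4 (Homo_3) and 175 CPM (Homo_4). High *Arntl* with low *Dbp* was thus seen in 2 libraries of each genotype, the reverse in WT_3, WT_4 and Homo_4, and a level between them in Homo_3. The log2 ratio of *Dbp* to *Arntl* was -2.64, -1.55, 4.18 and 3.20 in WT_1 to WT_4 and -2.23, -2.20, 1.72 and 3.99 in Homo_1 to Homo_4.

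*Nr1d1*, *Nr1d2* and *Per3* divided the PE2 libraries as *Dbp* did, and *Npas2*, *Clock*, *Cry1* and *Per2* did so in part. *Nr1d1* was at 50.2, 133, 357 and 250.3 CPM in WT_1 to WT_4 and at 55.3, 72.5, 214 and 276 CPM in Homo_1 to Homo_4. *Nr1d2* was at 26.5, 35.6, 112.3 and 106 CPM in the wild type and at 36.5, 43.6, 102 and 129 CPM in peg/peg. *Per3* was at 13.4, 10.2, 42.2 and 32.5 CPM and at 13.7, 14.9, 17.7 and 33.5 CPM in the same order. In each of these genes WT_1, WT_2, Homo_1 and Homo_2, the libraries with *Arntl* of at least 43.5 CPM, lay below the other 4. *Npas2* was at 61.8, 76.6, 26.8 and 25.3 CPM in the wild type and at 71.3, 60.8, 18.8 and 25.5 CPM in peg/peg, high with *Arntl* except that its lowest value was in Homo_3. *Clock* had the smallest span of the members, 1.67-fold from WT_3 (77.6 CPM) to Homo_1 (130 CPM), and in Homo_3 (128 CPM) it was above WT_1, WT_2 and Homo_2. *Cry1* was at 16.3, 12.4, 3.31 and 4.07 CPM in the wild type and at 11.9, 11.02, 24.5 and 2.84 CPM in peg/peg, highest in Homo_3. *Per2* was at 18.9, 16.5, 40.3 and 23.2 CPM and at 17.9, 26.1, 8.06 and 33.9 CPM, lowest in Homo_3.

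The PE2 headers carry a further number for each library, whose meaning is not given in the sources used here. In ascending order of it stand Homo_1, WT_1, Homo_2 and WT_2, with *Arntl* from 43.5 to 55.9 CPM, then Homo_3 with 26.3 CPM, and then Homo_4, WT_3 and WT_4, with *Arntl* from 10.9 to 13.5 CPM. *Dbp* was at 8.92 to 17.98 CPM in the first of these sets, at 86.4 CPM in Homo_3 and at 124 to 199 CPM in the last, and both outer sets held both genotypes. The outer sets also lay apart in *Npas2*, *Clock* and *Cry1*, but in these genes Homo_3 did not lie between them. In *Per1* and *Per2* the outer sets overlapped. This order of the libraries was seen in the values and was not tested.

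**Figure D2:**
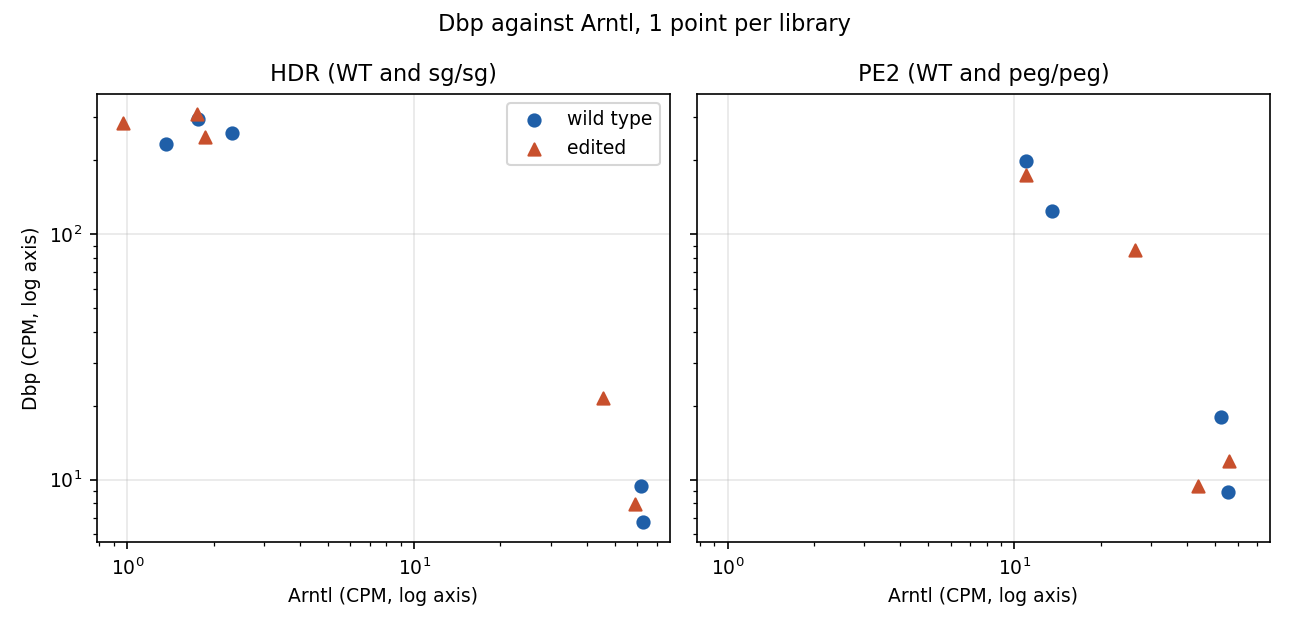
*Dbp* against *Arntl* in each library, in CPM on log axes, with wild-type libraries as blue circles and edited libraries as orange triangles. The HDR libraries form a group at 0.965 to 2.32 CPM of *Arntl* and another at 45.5 to 63.0 CPM, each with both genotypes, and the PE2 libraries lie between 10.9 and 55.9 CPM.

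The relation of *Arntl* to the other members was computed across libraries within each experiment, on log2 CPM, as Pearson's r and Spearman's rho with exact two-sided permutation p-values. Where the values of a gene fell into separate clusters, here where the largest gap exceeded 0.5 of the range, no r over all libraries is given. This held for *Arntl* in HDR, so only the 6 libraries with low *Arntl* were used there, and for *Npas2*, *Nr1d2* and *Dbp* in PE2, so 15 relations remained. In the 8 PE2 libraries *Arntl* went against *Per3* (r = -0.97, exact permutation p = 0.000595, Benjamini-Hochberg adjusted p = 0.00893). Its rank correlation with *Per3* was -0.88 (exact permutation p = 0.00724, adjusted p = 0.0543). *Arntl* also went against *Nr1d1* (r = -0.91, exact permutation p = 0.00556, adjusted p = 0.0417, and rho = -0.93, exact permutation p = 0.00223, adjusted p = 0.0335). Without the 2 libraries farthest from the median of *Arntl*, r was -0.94 for *Per3* and -0.84 for *Nr1d1*, and with 6 libraries left neither passed the adjustment (exact permutation, adjusted p = 0.104 for both). In all 8 libraries *Clock* (r = 0.85, exact permutation, adjusted p = 0.0703) and *Cry1* (r = 0.82, adjusted p = 0.0732) missed the threshold. Without Homo_3, *Arntl* had no value between 13.5 and 43.5 CPM, a gap of more than 0.5 of its log2 range. In the 7 female PE2 libraries it had none between 10.99 and 26.3 CPM, likewise more than 0.5 of that range. No r is therefore given for either set. Both sets were chosen after the data had been seen, unlike that without the 2 farthest libraries. The gaps of the other genes were judged over all libraries used. Within the 6 HDR libraries with low *Arntl*, 0 of 9 relations passed, the nearest being *Cry1* (r = -0.81, exact permutation p = 0.0347, adjusted p = 0.104).

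The genes whose level followed *Arntl* and *Dbp* most closely were read from all tested genes with a mean of at least 1 CPM, as a description with no p, since the libraries share the division above. Over the 10 HDR libraries the 5 most like *Arntl* were *Leo1* (r = 0.989), *Npas2* (0.985), *Map4k4* (0.984), *Tspan11* (0.979) and *Lnx2* (0.976). Over the 8 PE2 libraries they were *Cmtm6* (0.975), *Leo1* (0.970), *Asah1* (0.969), *Hnrnpa2b1* (0.964) and *Wsb1* (0.959). For *Dbp* they were *Per3* (0.997), *Tef* (0.996), *Xist* (0.991), *Gm18990* (0.990) and *Bhlhe41* (0.990) in HDR and *Bhlhe41* (0.972), *Cdc25b* (0.969), *Nr1d2* (0.964), *Nr1d1* (0.964) and *Pik3r2* (0.962) in PE2. Of the 50 most like *Arntl*, 3 were shared between the experiments (6% of each list), *Ccdc112*, *Cmtm6* and *Leo1*. Of the 50 most like *Dbp*, 3 were shared (6% of each list), the E-box repressor *Bhlhe41* and the clock genes *Nr1d2* and *Ciart*. *Leo1*, a subunit of the PAF1 complex of elongating RNA polymerase II, was at 5.12 to 8.41 CPM in the 6 HDR libraries with low *Arntl* and at 20.05 to 26.4 CPM in the 4 with high *Arntl*. In PE2 it was at 22.7 to 25.7 CPM in WT_1, WT_2, Homo_1 and Homo_2 and at 14.3 to 18.3 CPM in the rest.

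The clock genes were among the most variable genes of the HDR aortae once genotype was taken out. The division of the libraries described above lies within each genotype, so it enters this SD and is not a separate result. The SD of log2 CPM within genotypes ranked *Arntl* 13th (SD 2.82) and *Dbp* 20th (2.62) of the 16423 genes tested, followed by *Per3* (1.92, rank 58), *Npas2* (1.85, rank 69) and *Per2* (1.45, rank 150). In all, 8 of 10 members were in the top 5% of genes. *Clock* (0.70, rank 1826) and *Cry1* (0.46, rank 4743) were outside it. The median SD was 1.36 over the members and 0.31 over all genes. In PE2, 1 of 10 members, *Dbp* (2.12, rank 483 of 16401), was in the top 5%, and the median SD was 0.93 over the members and 0.31 over all genes.

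**Figure D3:**
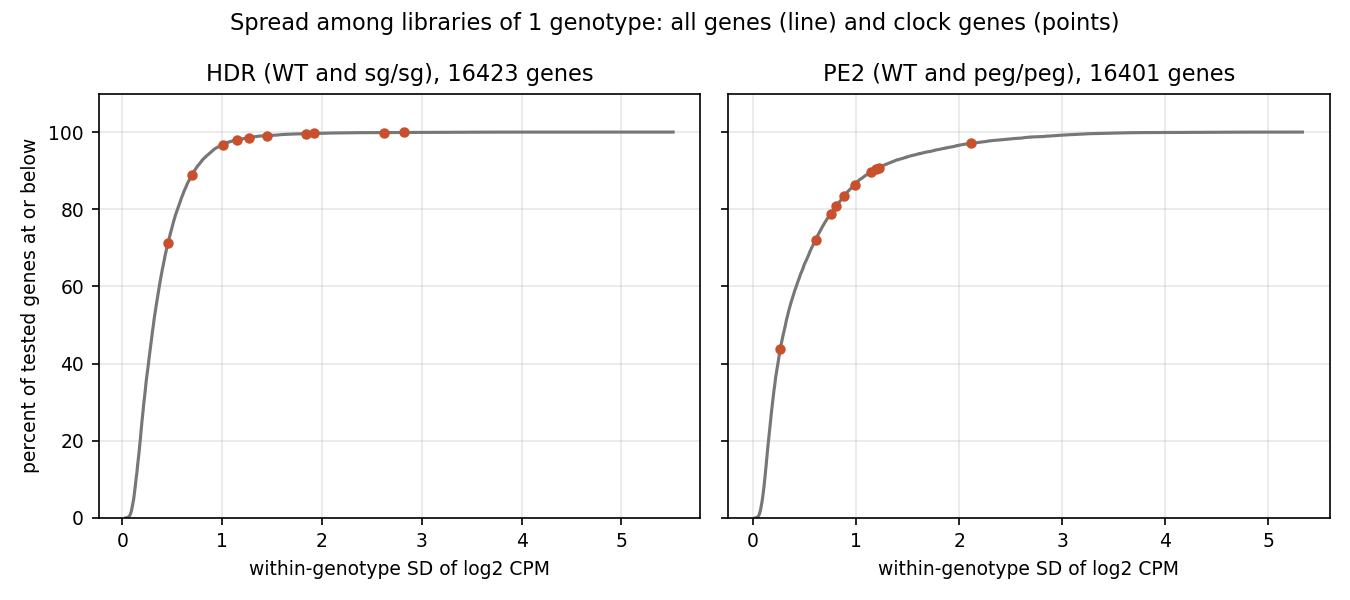
Percent of tested genes with an SD of log2 CPM within genotypes at or below the value on the horizontal axis (grey line, all genes) and the position of the 10 clock genes on it (points), for each experiment. In HDR, *Arntl* (2.82) and *Dbp* (2.62) lie where the line has almost reached its top, and in PE2 the member with the largest SD is *Dbp* (2.12).

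Levels of the members were set in order per length of exon. In the HDR wild type the median CPM per kilobase ran from *Dbp* (77.8) through *Nr1d2* (46.8), *Nr1d1* (41.9), *Per2* (26.2), *Per3* (19.97), *Per1* (17.7), *Clock* (8.49), *Cry1* (3.73) and *Npas2* (1.04) to *Arntl* (0.31). Each of these medians is a value of WT_2, WT_3 or WT_4, the wild-type libraries with low *Arntl*. In WT_5 and WT_6 the order was another, with *Clock* at 15.9 and 16.2, *Arntl* at 8.22 and 8.38 and *Dbp* at 3.16 and 2.25. In the PE2 wild type the median ran from *Nr1d1* (62.2) through *Dbp* (23.8), *Nr1d2* (13.1), *Npas2* (9.25), *Clock* (7.25), *Arntl* (4.39), *Per2* (3.60), *Per1* (2.68) and *Cry1* (2.47) to *Per3* (2.39). These medians lie between libraries of high and of low *Arntl*. Of the neighbours in each order, *Clock* and *Cry1* in HDR did not overlap, and all other neighbours overlapped over their libraries. The tables were normalised separately, so levels are not compared between experiments.

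The comparison of genotypes asked whether the loss of the CArG box altered these genes. In HDR, edgeR's quasi-likelihood test called 0 of 10 members at a Benjamini-Hochberg adjusted p under 0.05, where it called 0.00609% of all genes (*Tspan2* alone of 16423). Without adjustment, 0 of 10 members had a p under 0.05, against 1.98% of all genes, and DESeq2 also called 0 members, against 0.00933% of all genes. The largest differences between sg/sg and wild type on the log2 scale were those of *Arntl* (-0.26, standard error 1.29), *Per2* (0.26, standard error 0.68) and *Per1* (0.25, standard error 0.50). The rest lay between -0.04 (*Npas2*) and 0.14 (*Per3*). The median log2 fold change was 0.08 over the members and 0.00 over all genes. The genotypes overlapped in every member, while they did not overlap in 0.317% of all genes. The median standard error was 0.65 over the members and 0.19 over all genes, so a change in the members had to be several times larger than in other genes to be detected.

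The HDR comparison was therefore repeated with the division of the libraries taken into account, in fits that were chosen after the data had been seen. With the log2 CPM of *Xist* as a covariate, the standard errors fell to between 0.12 and 0.29, and *Arntl* differed by -0.07 (standard error 0.18), *Dbp* by 0.26 (standard error 0.19) and *Per1* by 0.10 (standard error 0.24). Again edgeR called 0 of 10 members (lowest adjusted p = 0.999), with 0 at an unadjusted p under 0.05, against 3.19% of all genes. Within the 6 libraries with *Xist*, 3 of each genotype, it called 0 members, with 0 at an unadjusted p under 0.05, against 2.06% of all genes. Within the 4 libraries with Y-linked transcripts, 2 of each genotype, it called 0 members (lowest adjusted p = 0.316), while *Nr1d1* (log2 fold change 1.25, standard error 0.37, unadjusted p = 0.0143) and *Nr1d2* (0.73, standard error 0.24, unadjusted p = 0.0220) were higher in sg/sg at an unadjusted p under 0.05. In that fit 10.4% of all genes had an unadjusted p under 0.05, and 3.07% were higher in sg/sg. *Nr1d1* was at 37.5 and 26.3 CPM in WT_5 and WT_6 and at 103 and 48.4 CPM in Mut_5 and Mut_6. In the 6 libraries with *Xist* its log2 fold change was -0.16 (standard error 0.27).

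**Figure D4:**
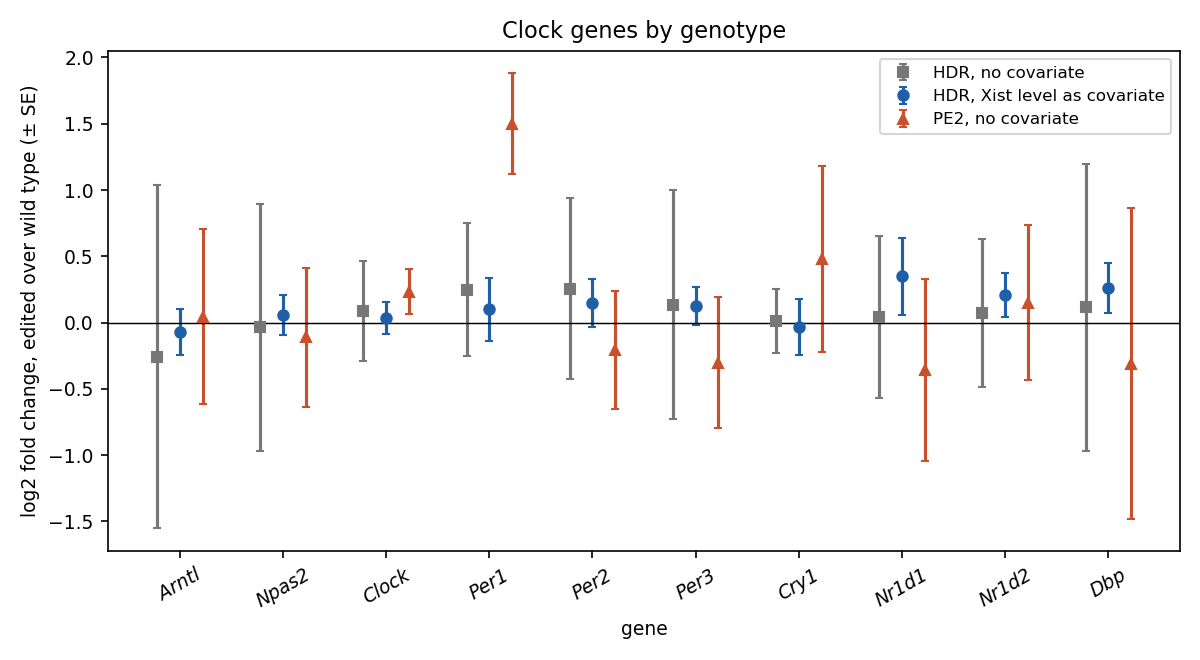
Log2 fold change of each clock gene between edited and wild-type aortae with its standard error (bars), for HDR without a covariate (grey squares), HDR with the *Xist* level as a covariate (blue circles) and PE2 without a covariate (orange triangles). The bars of HDR shrink with the covariate, and *Per1* in PE2 (1.50) is the value farthest from 0.

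In PE2, edgeR called 0 of 10 members, where it called 0.0061% of all genes (1 of 16401, *Tspan2*), and DESeq2's Wald test called 0 members, against 0.189% of the genes it tested. At an unadjusted p under 0.05 there was 1 member, *Per1*, against 4.3% of all genes. It was higher in peg/peg, as were 3.04% of all genes, and 0 members were lower, against 1.27% of all genes. The median log2 fold change was -0.03 over the members and 0.01 over all genes. Apart from *Per1*, the differences lay between -0.36 (*Nr1d1*, standard error 0.69) and 0.48 (*Cry1*, standard error 0.70), with *Arntl* at 0.04 (standard error 0.66), *Dbp* at -0.31 (standard error 1.17) and *Clock* at 0.23 (standard error 0.17). *Cry1* was at 24.5 CPM in Homo_3 and at 2.84 to 11.9 CPM in the other peg/peg libraries. With each library left out, its log2 fold change ran from -0.076 to 0.92. The genotypes overlapped in every member, while they did not overlap in 2.54% of all genes.

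*Per1*, the period gene known to respond to acute signals, was at 12.7 (WT_1), 12.1 (WT_2), 31.9 (WT_3) and 17.5 CPM (WT_4) in PE2 wild-type aortae and at 56.0 (Homo_1), 67.0 (Homo_2), 27.8 (Homo_3) and 59.2 CPM (Homo_4) in peg/peg. All peg/peg libraries but Homo_3 thus lay above all wild-type libraries. The means were 18.6 ± 9.21 and 52.5 ± 17.1 CPM (SD, n = 4 each), and the log2 fold change of 1.50 (standard error 0.38, unadjusted p = 0.00413) did not pass edgeR's test after adjustment (adjusted p = 0.861), nor DESeq2's (adjusted p = 0.0717). Without Homo_3 the log2 fold change was 1.70 (standard error 0.33, edgeR adjusted p = 0.451). Over the 15 alternative fits it stayed between 1.34 and 1.89, with an adjusted p from 0.0717 to 0.993. *Per1* did not go with the rest of the clock in these libraries. Homo_1 and Homo_2, with *Arntl*, *Dbp* and *Per3* close to those of WT_1 and WT_2, had 56.0 and 67.0 CPM of *Per1* where the latter had 12.7 and 12.1 CPM. *Per2*, which shares much of the control of *Per1*, differed by -0.21 on the log2 scale (standard error 0.45). Its lowest value was in Homo_3 (8.06 CPM), with 17.9 to 33.9 CPM in the other peg/peg libraries and 16.5 to 40.3 CPM in the wild type. With each library left out, the difference in *Per2* ran from -0.53 to 0.13. In HDR, *Per1* was at 189, 104, 99.7, 39.5 and 58.4 CPM in WT_2 to WT_6 and at 192, 143, 160, 31.2 and 55.2 CPM in Mut_2 to Mut_6, and the genotypes overlapped. The difference between the *Per1* changes of PE2 and HDR was 1.221 on the log2 scale (standard error 0.72, unadjusted p = 0.106, edgeR adjusted p = 0.974). That interaction test over all 18 libraries called 0 of 10 members and 0% of 18094 genes, with 0 members at an unadjusted p under 0.05, where 5.13% of all genes were (3.91% higher and 1.23% lower). No other tool was run for it.

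Genes that respond to acute stimuli are given beside *Per1* because its transcript can rise with them. Of 8 immediate early genes, all were tested in PE2, 0 were called by edgeR and 6 were higher in peg/peg at an unadjusted p under 0.05, where 3.04% of all genes were. These were *Fos* (log2 fold change 1.91, standard error 0.70), *Fosb* (1.81, standard error 0.48), *Egr1* (1.21, standard error 0.34), *Atf3* (2.26, standard error 0.76), *Nr4a1* (1.88, standard error 0.53) and *Ier2* (0.47, standard error 0.15). All encode transcription factors or their regulators that cells switch on within minutes of a stimulus. The median log2 fold change of the 8 was 1.51, against 0.01 over all genes, and without Homo_3 it was 1.79, with 7 higher at an unadjusted p under 0.05. *Fos* was at 43.2, 11.7, 25.1 and 4.93 CPM in WT_1 to WT_4 and at 105, 88.8, 23.3 and 102 CPM in Homo_1 to Homo_4. In *Fos*, *Atf3* and *Nr4a1*, as in *Per1*, Homo_3 fell among the wild type, and in *Dusp1* it lay below it. The other genes of the list went otherwise. Homo_3 was the highest of all libraries in *Junb* (103 CPM) and *Ier2* (43.7 CPM). It lay above every wild-type library in *Egr1* (116 against at most 104 CPM) and *Fosb* (11.9 against at most 10.3 CPM). In HDR, 0 of 8 were called and 0 passed an unadjusted p under 0.05 in either direction, where 0.353% of all genes were higher. Their median log2 fold change in HDR was 0.51, against 0.00 over all genes, with 5 of the 8 positive and 3 negative.

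Of 9 genes of the glucocorticoid response, 0 were called by edgeR in PE2 and 3 were higher in peg/peg at an unadjusted p under 0.05, where 3.04% of all genes were. *Tsc22d3*, which encodes the glucocorticoid-induced leucine zipper protein, was at 31.8, 16.3, 25.2 and 21.0 CPM in WT_1 to WT_4 and at 63.9, 105, 62.4 and 43.8 CPM in Homo_1 to Homo_4, without overlap. Its log2 fold change was 1.55 (standard error 0.30, edgeR adjusted p = 0.861), and DESeq2 called it (adjusted p = 0.00229). *Cebpd*, a transcription factor gene, was at 17.3, 13.6, 14.3 and 13.0 CPM and at 31.1, 29.7, 21.2 and 29.4 CPM, also without overlap. It differed by 0.94 on the log2 scale (standard error 0.15, edgeR adjusted p = 0.782, DESeq2 adjusted p = 0.000539). *Errfi1*, which encodes an inhibitor of the EGF receptor, differed by 1.32 on that scale (standard error 0.57), and its genotypes overlapped. *Fkbp5*, another target of the glucocorticoid receptor, was at 4.56 to 16.7 CPM in the wild type and at 7.004 to 22.4 CPM in peg/peg. The median over the 9 genes was 0.43. Without Homo_3 it was 0.48, with 4 genes higher at an unadjusted p under 0.05, and in females only it was 0.68, with 2 higher. In HDR 0 of 9 passed an unadjusted p under 0.05 (median 0.05). Whether the stimulus genes have a part in the *Per1* level was not tested. Among markers of other cell types in PE2, edgeR called 0 genes and the summed levels of the genotypes overlapped. Fibroblast markers had a positive log2 fold change in 6 of 6 genes (median 0.71, sums of 5667 to 9656 CPM in the wild type and 6568 to 11882.5 CPM in peg/peg) and Schwann cell markers in 4 of 4 (median 0.70, 27.4 to 105 and 28.4 to 161 CPM). Of 8 smooth muscle markers 2 were higher at an unadjusted p under 0.05 (median 0.43, 27134 to 45639 and 27765 to 58080 CPM), and of 9 lymphoid markers 3 were lower (median -0.40, 5.03 to 18.4 and 4.17 to 11.1 CPM). At that threshold 3.04% of all genes were higher and 1.27% lower. Endothelial markers had a negative log2 fold change in 6 of 6 genes, 1 of them at an unadjusted p under 0.05 (median -0.14, 1349 to 2089 and 541 to 2937 CPM). Brown fat and adipocyte markers had one in 4 of 5 genes each (median -0.91 and -0.45), none at an unadjusted p under 0.05. Their part in the result was not tested. The skeletal and cardiac sums were highest in Homo_3, whose *Per1* was the lowest of peg/peg.

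**Figure D5:**
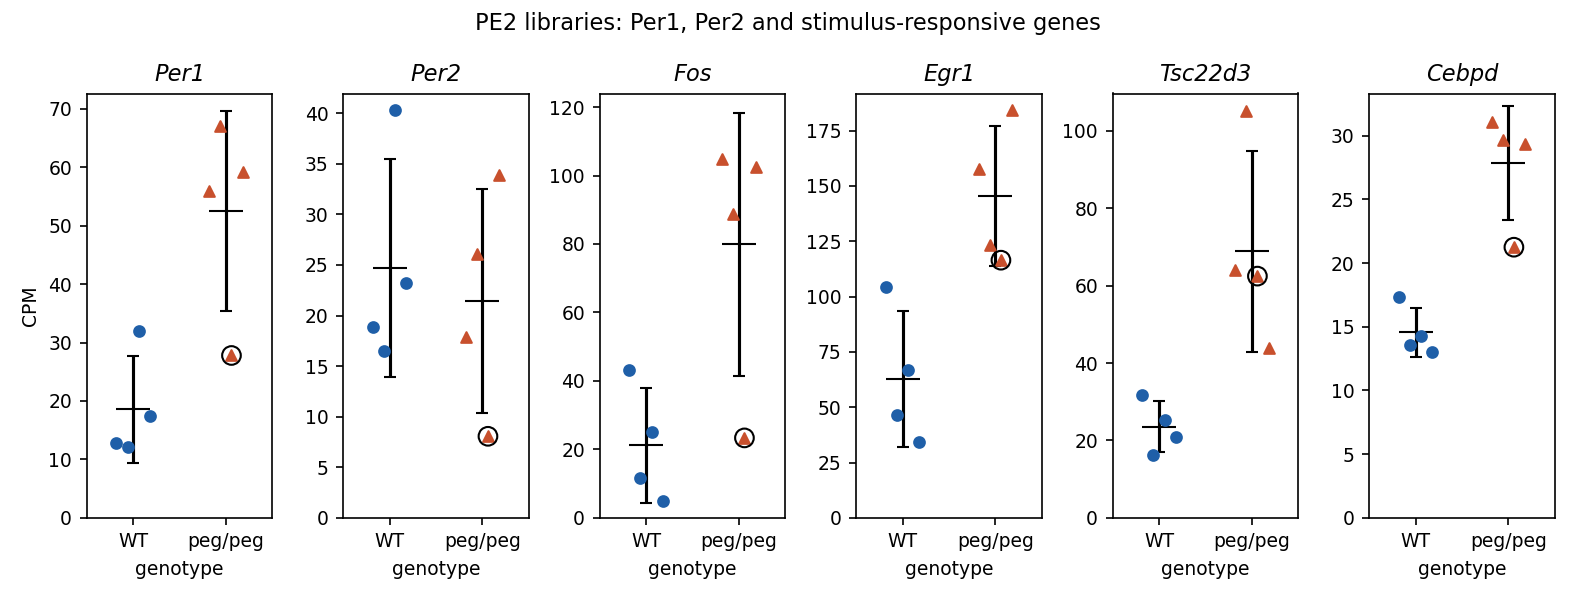
CPM of *Per1*, *Per2*, 2 immediate early genes (*Fos* and *Egr1*) and 2 glucocorticoid-responsive genes (*Tsc22d3* and *Cebpd*) in the 4 wild-type (circles) and 4 peg/peg (triangles) PE2 libraries, with the mean and SD as bars and Homo_3 ringed. *Per1* is at 12.1 to 31.9 CPM in the wild type and at 56.0 to 67.0 CPM in the peg/peg libraries other than Homo_3 (27.8 CPM), and *Per2* shows no such separation.

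The rest of the clock pathway gave no call by genotype either. Of 11 further regulators, 10 were tested in each experiment. Of these, 0 were called in either experiment, 0 passed an unadjusted p under 0.05 in HDR and 1 did in PE2, *Rora* (log2 fold change 0.32, standard error 0.12, unadjusted p = 0.0349, edgeR adjusted p = 0.861), at 48.5 to 59.6 CPM in the wild type and 54.3 to 77.4 CPM in peg/peg. Their median log2 fold change was 0.01 in HDR and -0.17 in PE2. Of 9 genes for turnover and kinases of clock proteins (median 0.06 and 0.09) and 4 output genes (median 0.15 and -0.01), 0 were called and 0 passed an unadjusted p under 0.05 in either experiment.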

How the data were processed

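Polyadenylated RNA of single aortae was sequenced in 18 libraries. The authors deposited raw counts per gene symbol, made, per the labels and the methods, with STAR (2.7.0f), GRCm38 with Gencode M22 and featureCounts of Subread (1.6.4); the deposited normalized tables were not used. The members and gene lists were chosen with earlier results of these data known. The number of columns left unused was 0, and no libraries were duplicates (lowest chi-square per degree of freedom between libraries of a genotype 15.59). Genotypes were compared within each experiment by edgeR (4.0.16) in R (4.3.3) on the counts, with TMM scaling, filterByExpr and glmQLFTest, without a covariate, and p-values were adjusted over all genes tested. DESeq2 (1.42.0; whole table) and limma-voom (3.58.1) were alternatives, as were DESeq2 size factors, no filter, each library left out, and, in PE2, the replicate number, sex and females alone. The scripts were tested on simulated data. Correlations were planned over all libraries with 18 relations, and were restricted after clusters were seen. Exon lengths came from Gencode M21. Named genes were the 10 members, *Tspan2*, listed genes with an unadjusted p under 0.05, and the 5 genes most like *Arntl* and *Dbp*. Other clock and stimulus genes, *Myh11*, *Ucp1*, the sex-linked genes and *Fkbp5* were named after their values were seen. Labels and methods differ on the library kit. Counts limit the precision of each value, and the strand setting of counting is not given in the sources used here, so reads of overlapping antisense genes may be included. One item is not reported here.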

Additional observations from a re-analysis of the deposited data

How the results depend on the processing

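In none of the 510 alternative fits of single members or their difference between experiments was a clock gene called, and *Per1* in PE2 kept its direction in all 15. Over all genes, the number called in HDR was 1 in edgeR, 4 in DESeq2 and 4 without a filter, and stayed at 1 with each library left out. In PE2 it was 1 in edgeR, 33 in DESeq2, and 0 with the replicate block, with sex as a covariate and in females only, and 0 to 2 with each library left out. *Tspan2* then had an adjusted p of 0.295, 0.131 and 0.128 in these 3 edgeR fits, at log2 fold changes of -3.50, -3.52 and -3.53 against -3.45. The 2 calls, *Tspan2* and *Gm6682*, came without Homo_3. The interaction gave 0 to 4 genes with each library left out, against 0 with all, the 4 without Homo_2.

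Same-numbered PE2 libraries did not deviate together (correlations 0.048, -0.24, -0.057 and -0.296). The labels do not say whether the numbers pair the samples. These correlations cannot decide it, since any other difference among the libraries enters them too. With the replicate block *Per1* had a log2 fold change of 1.58 (standard error 0.49, unadjusted p = 0.0229, edgeR). No paired analysis was possible because the HDR column numbers are not those of the labels, for HDR and the interaction.

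Small log2 fold changes turned sign, all without a call, and the cause was not tested. In HDR this was so for *Cry1* in limma-voom (-0.056), without a filter (-0.0034), with *Xist* (-0.031) and in the 4 Y-linked libraries (-0.35), for *Npas2* with *Xist* (0.059), for *Per1* in the 4 libraries (-0.20), and for *Clock* (-0.17), *Nr1d1* (-0.16) and *Nr1d2* (-0.042) in the 6 *Xist* libraries. In PE2 *Arntl* was at -0.22 with sex as a covariate and -0.22 in females only. With each library left out, HDR ranges were -1.05 to 0.38 (*Arntl*), -0.56 to 0.57 (*Npas2*), -0.20 to 0.26 (*Clock*), -0.0020 to 0.63 (*Per1*), -0.0012 to 0.53 (*Per2*), -0.15 to 0.53 (*Per3*), -0.11 to 0.19 (*Cry1*), -0.23 to 0.43 (*Nr1d1*), -0.18 to 0.40 (*Nr1d2*) and -0.20 to 0.46 (*Dbp*). In PE2 they were -0.31 to 0.41 (*Arntl*), -0.45 to 0.21 (*Npas2*), -0.53 to 0.13 (*Per2*), -0.69 to 0.088 (*Per3*), -0.076 to 0.92 (*Cry1*), -0.81 to 0.093 (*Nr1d1*), -0.23 to 0.47 (*Nr1d2*) and -1.31 to 0.49 (*Dbp*). For the interaction they were -0.35 to 1.07 (*Arntl*), -0.74 to 0.43 (*Npas2*), -0.045 to 0.42 (*Clock*), -0.086 to 0.90 (*Cry1*), -0.88 to 0.067 (*Nr1d1*), -0.31 to 0.42 (*Nr1d2*) and -1.43 to 0.40 (*Dbp*).

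Of the 15 relations with *Arntl*, 2 passed over all libraries used, 3 without Homo_3 and 0 without the 2 libraries farthest from its median, where r turned sign in HDR for *Npas2* (-0.11), *Clock* (-0.54), *Per2* (0.35), *Per3* (0.46) and *Dbp* (0.56) and in PE2 for *Per1* (0.14) and *Per2* (0.054). With genotype means removed, HDR *Npas2* (-0.047), *Clock* (-0.059) and *Dbp* (0.080) turned sign, and *Clock* in PE2 passed (r = 0.91, exact permutation, adjusted p = 0.0102). The depth limited *Arntl* most, at 20 counts in the lowest library.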
